A study of Mus musculus with 18 samples.

Results

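The comparison of CGG90 with wild type at 12 weeks rested on 6 array libraries of Purkinje cell ribosome-bound RNA, out of 18 in the series. The members were chosen by title: 3 libraries were labelled CGG90Fmr1 and 3 wildtype, all at 12 weeks. Each library pooled the cerebella of 4 mice, 2 male and 2 female. All mice were first-generation offspring of a C57B6 parent heterozygous for L7CGG90Fmr1 and an FVB parent homozygous for the L7/Pcp2eEGFPL10a transgene. Both groups therefore carried 1 copy of the tagged ribosomal protein, and the CGG90 group carried 1 copy of L7CGG90Fmr1 in addition. Wild-type animals were littermates where possible. The L7 (Pcp2) promoter, which is active in Purkinje cells, drives the tag and the repeat transgene alike. No comparison here holds an L7-driven Fmr1 of normal repeat length, so the repeat and the added Fmr1 RNA cannot be told apart in this design. The other 12 libraries, 3 per genotype at 4 and 8 weeks, entered the fit to share its estimate of spread.

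Expanded CGG repeats in the 5′ untranslated region of FMR1, in the premutation range, cause fragile X-associated tremor/ataxia syndrome, in which Purkinje cells are lost and neurons form ubiquitin-positive inclusions. The repeat RNA is made rather than silenced, binds proteins such as the Pur proteins, hnRNP A2/B1 and TDP-43, and can be translated from non-AUG codons. FMRP, the protein of Fmr1, is itself an RNA-binding regulator of translation at synapses. In translating ribosome affinity purification, a tagged ribosomal protein is pulled down from one cell type, so that the RNA recovered is that on its ribosomes.

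The array held 45101 probe sets, and 10068 genes passed the filter on low values, each read by its brightest probe set. Values are log2 GCRMA signals, so that a difference of 1 is a doubling. The libraries had like distributions, with medians over all probe sets of 2.56 to 2.61. Purkinje cell identity was borne out by its markers: the mean of 16 tested markers lay between 12.49 and 13.00 in the 6 libraries, against a mean of 7.59 to 7.89 over all tested genes. Pcp2, whose promoter drives both transgenes, read 14.73, 14.91 and 14.75 in the wild-type libraries and 14.87, 14.81 and 14.82 in the CGG90 libraries. Rpl10a, the gene of the ribosomal protein that carries the tag, read 12.32, 12.87 and 12.85 in wild type and 12.52, 12.66 and 12.62 in CGG90. Both ranges overlapped, with differences of 0.04 and -0.08. In pooled tissue of this kind, fewer cells and less RNA per cell cannot be told apart.

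Fmr1, the gene that the transgene adds, was at the transgenic level in 1 of the 3 libraries labelled CGG90. On the brightest of 3 Fmr1 probe sets the wild-type libraries read 7.63, 8.39 and 7.78, and those labelled CGG90 read 7.10, 6.03 and 12.01 for replicates 1, 2 and 3. Replicate 3 was 4.08 above the wild-type mean, a 16.9-fold difference, whereas replicates 1 and 2 lay below every wild-type library. CGG90 libraries of the same series spanned 11.52 to 11.72 at 4 weeks and 11.01 to 11.90 at 8 weeks. The group means at 12 weeks were 8.38 ± 3.19 (SD, n = 3) in CGG90 and 7.93 ± 0.40 in wild type, a difference of 0.45 with an SE of 1.11. A two-sided exact permutation test of 3 against 3, which cannot go below 0.1, gave p = 1.

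On the second Fmr1 probe set replicate 3 was again far above the rest. There replicate 1 lay above every wild-type library and replicate 2 within their range. Wild-type libraries read 4.87, 6.31 and 6.42, and those labelled CGG90 read 6.82, 5.06 and 9.88, so that replicate 3 was 4.01 above the wild-type mean, or 16.1-fold. The exact permutation p was 0.4. The dimmest probe set did not separate replicate 3: wild type read 5.96, 4.89 and 5.64 and CGG90 read 6.28, 5.36 and 6.60 (exact permutation p = 0.3). On that probe set the genotypes overlapped at 4 and 8 weeks as well. Because 2 libraries go against their label on Fmr1, every direction below is between the libraries as labelled, and replicate 3 is given beside each main result.

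**Figure D1:**
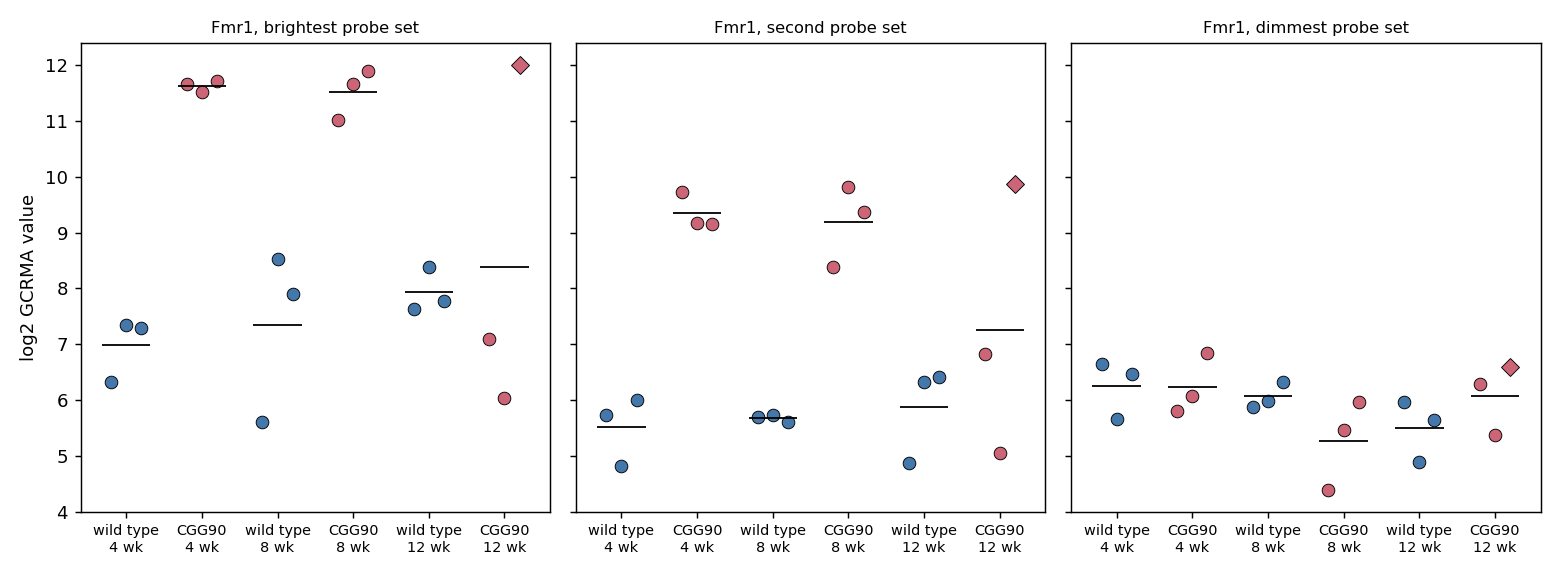
Log2 GCRMA value of the 3 Fmr1 probe sets in all 18 libraries, by genotype and age. Points are libraries, horizontal lines are group means, and the diamond is the library labelled CGG90 12 weeks replicate 3. On the brightest probe set the diamond lies at 12.01, within reach of the CGG90 libraries at 4 and 8 weeks, while the other two labelled CGG90 at 12 weeks lie at 7.10 and 6.03.

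Across all genes no difference between the labelled groups passed. With limma and Benjamini-Hochberg adjustment over 10068 genes, 0 genes (0%) had an adjusted p below 0.05, and the smallest adjusted p was 0.465. At an unadjusted p below 0.05 there were 534 genes (5.3%), of which 296 (2.94%) were higher and 238 (2.36%) lower in CGG90. The 2 groups did not overlap in 868 genes (8.62%), 496 (4.93%) higher and 372 (3.69%) lower in CGG90. The median SE of a difference was 0.47 on the log2 scale, so that only large differences could pass. The p-values measure the spread between pools of 4 mice.

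The library with high Fmr1 stood apart from the others in the fewest genes. It lay above all the other 12-week libraries by 1 or more on the log2 scale in 49 genes and below them in 3. The same count for the libraries labelled CGG90 replicates 1 and 2 was 171 above and 153 below, and 293 above and 516 below. Among wild-type libraries, replicate 3 had the most, 340 above and 464 below, and replicate 1 the fewest, 107 and 54. Across tested genes, which are not independent, replicate 3 of CGG90 had Pearson correlations of 0.970, 0.952 and 0.918 with wild-type replicates 1, 2 and 3, and of 0.950 and 0.920 with CGG90 replicates 1 and 2.

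**Figure D2:**
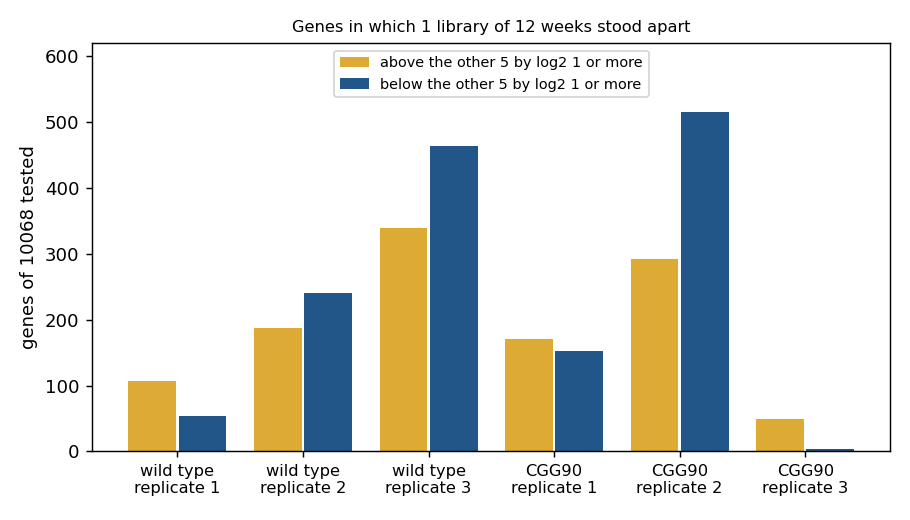
Number of the 10068 tested genes in which a single 12-week library lay above (yellow) or below (blue) all the other 5 by log2 1 or more. The library labelled CGG90 replicate 3, with high Fmr1, has the lowest bars, 49 and 3, and CGG90 replicate 2 and wild-type replicate 3 have the highest.

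Fmr1 was the gene with the widest gap above the rest in that library, 3.62. The next were Pde7a, a cyclic AMP phosphodiesterase, with a gap of 2.58, and Chml, a Rab escort protein, with 1.98. Mmp16, a membrane-bound matrix metalloproteinase, had a gap of 1.95, Pcolce2 1.86 and the transcription factor Ikzf2 1.80. Pde7a read 4.18, 4.84 and 5.29 in wild type and 3.51, 3.29 and 7.87 in CGG90, so the other CGG90 libraries were the lowest of all. Below the rest lay Nwd1, by 1.43, Mospd3, by 1.10, and Fkbp1b, which binds ryanodine receptors, by 1.00. Sox10, Plvap and the histone methyltransferase Dot1l followed at 0.93, 0.90 and 0.89. These genes were picked by their gap, so they carry no test. In Chml, Mmp16 and Ikzf2 the other 12-week libraries were dim, at 3.42 to 3.90, 3.34 to 3.46 and 2.36 to 2.92. In Nwd1 replicate 3 read 2.63, within the group means of 4 and 8 weeks, 2.52 to 2.91, and the other 12-week libraries lay above those means.

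The reverse arrangement, in which CGG90 replicates 1 and 2 left the wild-type range together and replicate 3 stayed within it, was counted for every pair of CGG90 libraries. Replicates 1 and 2 lay below all wild-type libraries, with replicate 3 inside their range, in 644 genes (6.4%), and above them in 347 (3.45%). Replicates 1 and 3 did so in 170 below and 307 above, and replicates 2 and 3 in 138 below and 331 above. When both had to clear the wild-type range by 1 or more, the counts below were 38, 1 and 0 for the 3 pairs, and the counts above were 30, 8 and 6. Replicates 1 and 2 came from a single immunoprecipitation day, and replicate 3 from another; day and Fmr1 level cannot be told apart among these 3 libraries.

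Atf6, the membrane-bound transcription factor that senses unfolded protein in the endoplasmic reticulum, was the widest such case among the genes named by rule. It read 7.60, 7.84 and 8.31 in wild type and 3.91, 3.23 and 7.64 in CGG90. Replicates 1 and 2 were far below wild type and replicate 3 was within its range (difference -2.99, SE 1.15, limma adjusted p = 0.873). The 4 groups of 4 and 8 weeks had Atf6 means of 4.82 to 6.11. The CGG90 mean of 12 weeks, 4.93, lay within that range and the wild-type mean, 7.92, above it. Mief1, an adaptor that recruits the mitochondrial fission enzyme, read 8.45, 8.78 and 8.41 against 6.39, 7.61 and 8.23, with replicate 3 just under the lowest wild-type library. Khdrbs1, which encodes the RNA-binding protein Sam68, read 10.08, 9.77 and 10.12 against 8.93, 8.86 and 10.24. Here replicate 3 was the highest of all the libraries. Cacna1a, the P/Q-type calcium channel subunit mutated in a spinocerebellar ataxia, read 8.37, 8.67 and 7.92 against 6.70, 7.30 and 8.11. Kcna1, a potassium channel subunit mutated in episodic ataxia, read 9.69, 9.29 and 8.96 against 8.30, 7.19 and 9.38. In Cacna1a and Kcna1 the 2 libraries without high Fmr1 were the lowest and replicate 3 was within the wild-type range.

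Of the genes of smallest p, 12 were higher and 12 lower in CGG90, and the 2 groups did not overlap in any of the 24. Their differences spanned 1.11 to 2.17 for the higher genes and -1.10 to -3.71 for the lower. The limma adjusted p was 0.465 for Gpr146 and Ddn and 0.758 for the other 22.

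Gpr146, an orphan G protein-coupled receptor, had the smallest p of the higher genes. It read 3.53, 3.36 and 2.64 in wild type and 5.03, 5.74 and 4.50 in CGG90, a log2 difference of 1.91 (SE 0.35). These are dim signals: means at 4 and 8 weeks were 2.79 to 3.32, near the floor of the array. Gpr146 reached the filter's log2 of 4 only in the 3 CGG90 libraries of 12 weeks. It was therefore tested only through the group where it was high, and its rank is no support for a difference. Snhg5, a noncoding host of small nucleolar RNAs, was well measured and read 8.56, 8.91 and 8.53 against 10.57, 10.45 and 9.32 (log2 1.45, SE 0.33). Its replicate 3 was the nearest to wild type. Lats1, a kinase of the Hippo pathway, had the largest difference, 5.89, 5.23 and 4.57 against 7.98, 6.55 and 7.68 (log2 2.17, SE 0.54). A second Lats1 probe set differed by -1.33, in the other direction.

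Rsf1, a chromatin remodelling subunit, read 3.91, 3.90 and 4.71 against 5.44, 6.50 and 5.71, and its second probe set differed by 2.86 in the same direction. Kdm4c, a histone demethylase, read 4.38, 4.46 and 3.60 against 5.17, 5.63 and 5.36. Sde2, which guards DNA replication, read 6.38, 6.17 and 4.72 against 7.37, 7.60 and 7.03, while its second probe set differed by -0.77. Sbds, needed for maturation of the large ribosomal subunit, read 6.87, 7.23 and 6.13 against 7.43, 8.26 and 8.27. The threonyl-tRNA synthetase-like gene Tarsl2 read 4.93, 4.62 and 3.23 against 5.55, 6.58 and 5.65. Pigv, which adds mannose to membrane anchors, read 5.13, 3.97 and 4.38 against 5.77, 6.98 and 5.49. In Rsf1, Tarsl2 and Pigv CGG90 replicate 2 was the highest library, and in Sbds replicates 2 and 3 were level. Leng9, C630043F03Rik and 2010315B03Rik completed the higher genes, with differences of 1.72, 1.64 and 1.11.

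Ddn, the gene of dendrin, a postsynaptic protein whose mRNA is carried into dendrites, had the largest difference of the lower genes. It read 8.05, 7.22 and 6.56 in wild type and 3.84, 2.43 and 4.44 in CGG90, a log2 difference of -3.71 (SE 0.69). The CGG90 values are dim and near the floor of the array, so no fold is given. The 4 other groups had means of 3.02 to 4.24, so that the wild-type libraries of 12 weeks, not those labelled CGG90, were the ones away from the rest of the series. Src, the tyrosine kinase, read 10.36, 7.50 and 9.92 against 6.55, 4.15 and 7.31 (log2 -3.26, SE 0.86), and its second probe set differed by -0.23. Adhfe1, a mitochondrial transhydrogenase, read 7.63, 5.68 and 8.23 against 4.60, 4.29 and 4.66 (log2 -2.66, SE 0.63). In Adhfe1 the CGG90 libraries lay close together and below the means of the 4 other groups, 5.47 to 6.36. The wild-type mean of 12 weeks, 7.18, lay above them. The second Adhfe1 probe set differed by -1.24.

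Miga2, which promotes mitochondrial fusion, had a lower mean in CGG90 on each of its 4 probe sets, though the groups did not separate on all of them. The brightest read 10.98, 10.27 and 10.29 in wild type and 8.54, 8.94 and 9.75 in CGG90 (log2 -1.44, SE 0.30), and the other 3 differed by -1.17, -1.44 and -1.06. Replicate 3 was again the CGG90 library nearest to wild type. On the probe sets that differed by -1.17 and -1.06 it read 8.65 and 8.88, within the wild-type ranges of 8.34 to 9.50 and 8.65 to 9.60. Nectin4, an adhesion molecule, read 4.51, 6.27 and 6.00 against 3.61, 3.38 and 3.81 (log2 -1.99), and its second probe set differed by -0.19. Its means in the 4 other groups were 2.95 to 3.79, below the filter's log2 of 4. Nectin4 was therefore tested only through the wild-type libraries of 12 weeks, where it was high, and its rank is no support for a difference. Slc39a9, a zinc transporter, read 5.43, 4.61 and 6.00 against 2.89, 2.73 and 4.10. Ufsp1, a protease of the ubiquitin-like modifier UFM1, read 7.48, 8.59 and 6.93 against 4.49, 5.01 and 6.88, so replicate 3 all but met the lowest wild-type library. Pofut2, a protein O-fucosyltransferase, read 10.42, 11.49 and 10.41 against 8.95, 8.31 and 10.09, and its other probe sets differed by -0.12, -1.10 and -1.28. Ttc7b, Tmem189, Tmem74b and Pcdhb3 completed the lower genes, with differences of -1.10, -1.55, -1.21 and -1.78. The second probe set of Tmem189 differed by -0.076, and that of Ttc7b by -0.62.

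**Figure D3:**
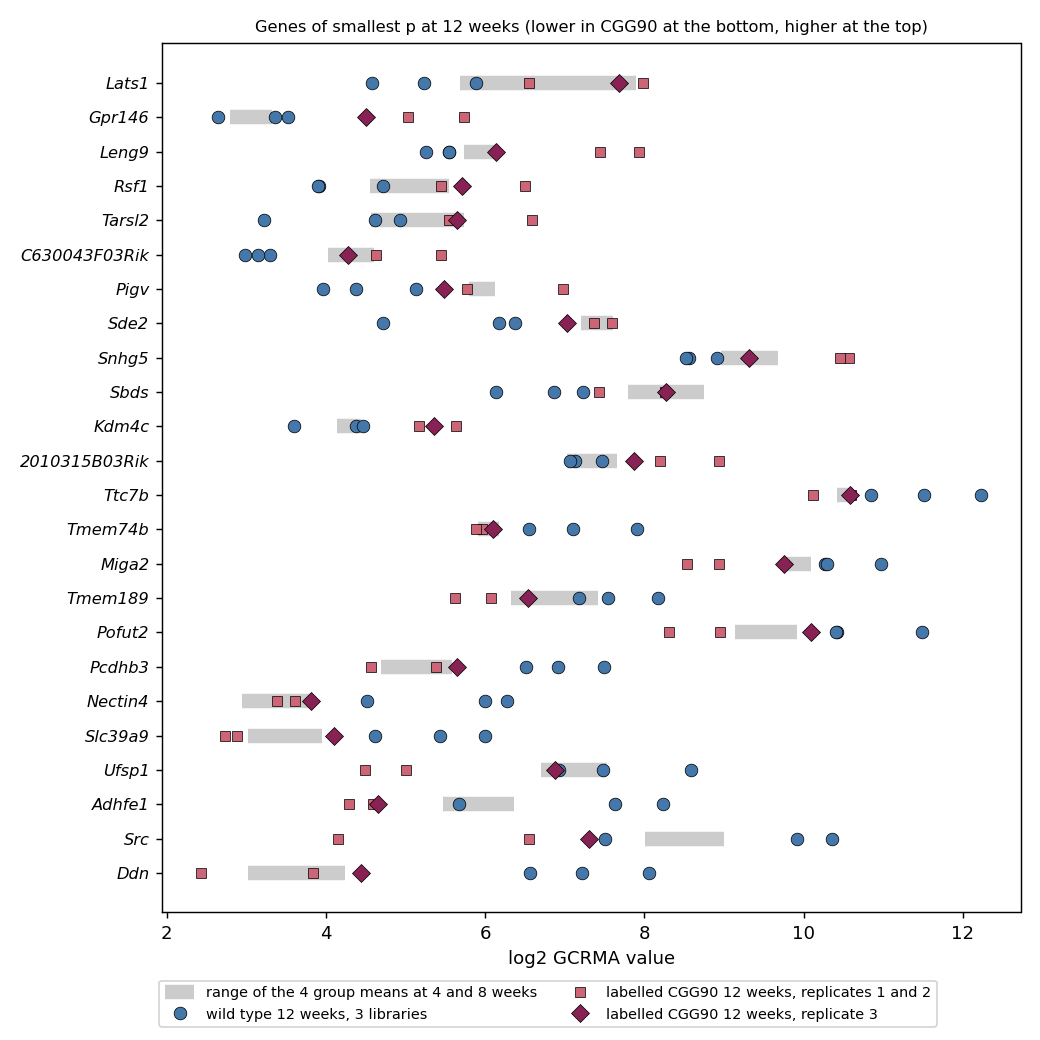
Log2 GCRMA value of the 12 higher and 12 lower genes of smallest p in each 12-week library. Circles are wild type, squares CGG90 replicates 1 and 2, diamonds replicate 3, and grey bars span the means of the 4 groups at 4 and 8 weeks. Diamonds tend to lie on the wild-type side of the squares, and for Ddn the grey bar, 3.02 to 4.24, lies among the CGG90 points and below every wild-type point.

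Set against the 4 groups of 4 and 8 weeks, the wild-type group of 12 weeks was the farther of the pair in 15 of these 24 genes and CGG90 in 9. Over all tested genes wild type was the farther in 48.3%. In 10 of the 24 the wild-type mean lay outside the range of the 4 other group means while the CGG90 mean lay inside. In 3 the reverse held, and in 11 both lay outside. The 24 were picked by p at 12 weeks, and these counts were not made over all tested genes. The wild-type libraries of 12 weeks also form a run of library numbers of their own, apart from that of the CGG90 libraries, so genotype and run cannot be told apart at this age. One immunoprecipitation day held wild-type replicate 1 with CGG90 replicates 1 and 2. Within that day the differences were 0.97 to 2.15 for the higher genes and -0.63 to -5.01 for the lower. Their direction there was fixed by the lack of overlap and is no further support. Those are the CGG90 libraries without high Fmr1.

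Replicate 3 was the CGG90 library nearest to the wild-type mean in 18 of the 24 genes, replicate 1 in 4 and replicate 2 in 2. Over all tested genes the shares were 42.8%, 31.6% and 25.6%. The median over all genes of a library minus the wild-type mean was -0.02, -0.08 and 0.15 for replicates 1, 2 and 3, and the list medians below should be read against these.

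Among FMRP and its binding partners, 9 of 11 genes were tested and 0 passed. In 6 the difference was above 0 and in 3 below, with a median of 0.30 beside 0.01 for all tested genes, of which 51.2% were above 0. The library medians were -0.25, -0.26 and 0.44 for replicates 1, 2 and 3, so the positive median came with replicate 3. Nufip1, a nuclear FMRP-interacting protein, was the single member whose groups did not overlap, at 6.15, 6.75 and 6.12 in wild type and 6.95, 9.29 and 7.19 in CGG90 (log2 1.47). Such a count, 1 of 9, is near the 8.62% of all tested genes. For Nufip1, replicate 2 was by far the highest. Fxr2, an Fmr1 paralogue, read 8.73, 10.11 and 7.85 against 7.01, 8.00 and 8.50. Fxr1 read 8.82, 8.69 and 8.77 against 8.26, 9.70 and 9.19. The list's median turned to -0.41 within the shared day, where all-gene differences had a median of -0.10.

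Proteins known to bind CGG repeat RNA were mostly slightly higher in the libraries labelled CGG90. Of 23 tested members, 20 were above 0 and 3 below, with a median of 0.29 and a range of -0.76 to 0.91, and 0 passed. Replicates 1, 2 and 3 had medians of 0.25, 0.21 and 0.40 against the wild-type mean, so the library with high Fmr1 was not alone. Within the shared day the median was 0.01. Purb, a Pur-alpha relative, was 10.77, 10.66 and 10.50 in wild type and 11.35, 10.95 and 11.30 in CGG90, and the groups did not overlap. Hnrnpa1, a splicing regulator, was 9.65, 10.00 and 10.01 against 10.06, 10.33 and 10.05. Those were the only 2 of the 23 without overlap, near the 8.62% of all tested genes. Pura read 9.74, 8.88 and 9.31 against 10.28, 9.18 and 10.46, and Hnrnpa2b1 12.49, 12.01 and 12.08 against 12.57, 12.44 and 12.66.

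Tardbp, which encodes TDP-43, read 9.12, 8.37 and 9.49 in wild type and 9.49, 9.05 and 9.54 in CGG90. The ranges overlapped and the difference was 0.37 (exact permutation p = 0.6). Its other probe sets differed by 0.50, -0.25, 0.85 and 1.84. The last was the dimmest, at 4.54, 2.43 and 2.44 in wild type, near the floor of the array. At 4 and 8 weeks the Tardbp means were 10.02 and 9.64 in wild type and 9.83 and 8.98 in CGG90.

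The microRNA machinery was balanced, with 7 of 13 tested members above 0 and a median of 0.00. Drosha, the nuclear microRNA processing enzyme, read 13.34, 13.20 and 13.15 against 12.95, 13.09 and 13.25, and its partner Dgcr8 5.60, 5.86 and 3.30 against 5.71, 6.20 and 5.58. Small nucleolar RNA hosts were above 0 in 9 of 11, with a median of 0.18. That came with CGG90 replicate 2, whose median was 0.85, against 0.07 and -0.14 in replicates 1 and 3. Besides Snhg5, Snhg4 read 8.36, 9.37 and 10.00 against 9.69, 10.56 and 9.57, and the groups overlapped.

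Translation factors were above 0 in 19 of 28 with a median of 0.06, and 5 had no overlap, all higher in CGG90, against 4.93% of all tested genes. The widest difference, 1.11, was in Eif3b, at 8.03, 6.73 and 6.09 against 8.58, 8.23 and 7.38, where the groups overlapped. Eif3a, the largest subunit of the same initiation factor, read 9.65, 8.76 and 9.57 against 10.37, 10.31 and 10.23 (log2 0.98, SE 0.37). All its CGG90 values, replicate 3 included, were above wild type. The limma adjusted p of Eif3a was 0.873, and its difference at 4 and 8 weeks was -0.34 and -0.83.

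At the parallel fibre synapse, group I glutamate receptor signalling releases calcium and drives long-term depression, a process that FMRP modulates. Of 18 tested members of that pathway 9 were above 0 and 9 below, with a median of 0.00. Homer1, the scaffold between the receptor and calcium stores, read 7.66, 6.72 and 7.80 in wild type and 5.24, 6.54 and 6.35 in CGG90, with no overlap. Its CGG90 mean, 6.04, lay within the means of the 4 groups of 4 and 8 weeks, 5.59 to 6.60. The wild-type mean of 12 weeks, 7.39, lay above them. Atp2b2, the calcium pump of the Purkinje membrane, read 13.36, 12.93 and 12.31 against 12.14, 11.82 and 12.92. Its replicate 3 lay in the wild-type range. Calb1 read 13.49, 13.46 and 12.88 against 13.04, 13.07 and 13.55, and Car8 14.18, 13.87 and 13.73 against 13.94, 13.94 and 14.15. These abundant calcium regulators overlapped between the groups.

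Postsynaptic scaffolds were above 0 in 10 of 22, with a median of -0.05. Groups did not overlap in 5 of them, 4 lower and 1 higher in CGG90, against 3.69% and 4.93% of all tested genes. Beside Ddn and Homer1 the lower ones were Kalrn, an exchange factor that shapes spines, at 11.41, 11.44 and 11.13 against 10.67, 10.59 and 11.02, and Camk2a at 11.31, 11.29 and 11.03 against 10.86, 10.87 and 10.04. The higher one was Camk2b, the other main subunit of this kinase, at 9.87, 10.04 and 9.28 against 10.39, 10.70 and 10.13. Camk2a and Camk2b thus lay on opposite sides of 0, by -0.62 and 0.68. Glutamate receptors and synapse organisers were above 0 in 9 of 17, with a median of 0.01. Nlgn2, the neuroligin of inhibitory synapses, read 12.36, 12.18 and 11.38 against 11.11, 11.03 and 11.63. Cbln1, which granule cells secrete onto Purkinje spines, read 11.51, 11.15 and 11.81 against 12.15, 12.06 and 11.66.

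Purkinje ion channels were above 0 in 9 of 22 with a median of -0.07, and the library medians were -0.12, -0.37 and 0.16. Beside Kcna1 and Cacna1a, Cacna1g, a T-type calcium channel, read 8.80, 9.23 and 7.26 against 7.02, 7.57 and 8.62. Scn4b, which supports resurgent sodium current, read 12.00, 11.55 and 10.95 against 10.78, 10.79 and 11.21. Hereditary ataxia genes were above 0 in 11 of 17 with a median of 0.03. Atxn1 read 7.80, 8.04 and 9.06 against 7.27, 7.04 and 8.78, and Atxn3 6.82, 5.75 and 7.27 against 5.08, 5.99 and 6.42. Both ranges overlapped.

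Heat shock proteins, chaperones of the cytosol, mitochondria and endoplasmic reticulum, were above 0 in 20 of 22 tested, with a median of 0.22, and 0 passed. Groups did not overlap in 4, all higher in CGG90, against 4.93% of all genes. Hspa4 read 11.07, 11.02 and 10.93 in wild type and 11.31, 11.51 and 11.48 in CGG90. Hspd1, the mitochondrial chaperonin, read 10.60, 10.83 and 10.70 against 10.91, 11.33 and 11.15. Hsph1 read 12.37, 11.88 and 12.27 against 12.47, 12.71 and 12.69, and Hspa8, the constitutive cytosolic chaperone, 14.14, 14.17 and 14.27 against 14.31, 14.39 and 14.40. These differences were small, 0.42, 0.42, 0.45 and 0.17, and the first 3 had a limma adjusted p of 0.894. Hspa4l read 10.11, 8.53 and 8.35 against 10.36, 9.99 and 10.29 (log2 1.22). The inducible Hspa1b was uneven, at 4.24, 2.14 and 2.82 against 6.16, 2.83 and 3.74, and Hspb1 differed by -1.65, with replicate 2 at 3.79. The list's medians by library were 0.15, 0.06 and 0.45, and within the shared day 0.16. At 4 and 8 weeks they were -0.06 and -0.20.

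The unfolded protein response went apart by library. Of 23 tested genes 10 were above 0, with a median of -0.09, but the library medians were -0.17, -0.48 and 0.33 for replicates 1, 2 and 3. Without replicate 3 the median was -0.35, and within the shared day -0.71. The shared day holds wild-type replicate 1 alone, whose mean level for this list was the highest. Wild type spread as well: mean levels were 9.37, 8.90 and 8.72 there and 8.63, 8.46 and 9.31 in CGG90. Besides Atf6, Mydgf, a protein of the secretory pathway, read 12.07, 11.51 and 10.99 against 10.35, 9.90 and 11.09. Hspa5, the chaperone BiP, read 12.19, 11.05 and 11.12 against 11.43, 11.43 and 12.16, and Hsp90b1 11.77, 10.57 and 10.15 against 10.86, 10.39 and 11.73. In both, wild-type replicate 1 and CGG90 replicate 3 were the 2 highest libraries. Ddit3, the stress factor CHOP, read 10.92, 10.98 and 11.17 against 12.00, 11.47 and 11.04, and Xbp1 9.98, 9.83 and 9.27 against 10.07, 9.21 and 9.56. Ubiquitin and autophagy genes were above 0 in 11 of 20 with a median of 0.02.

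**Figure D4:**
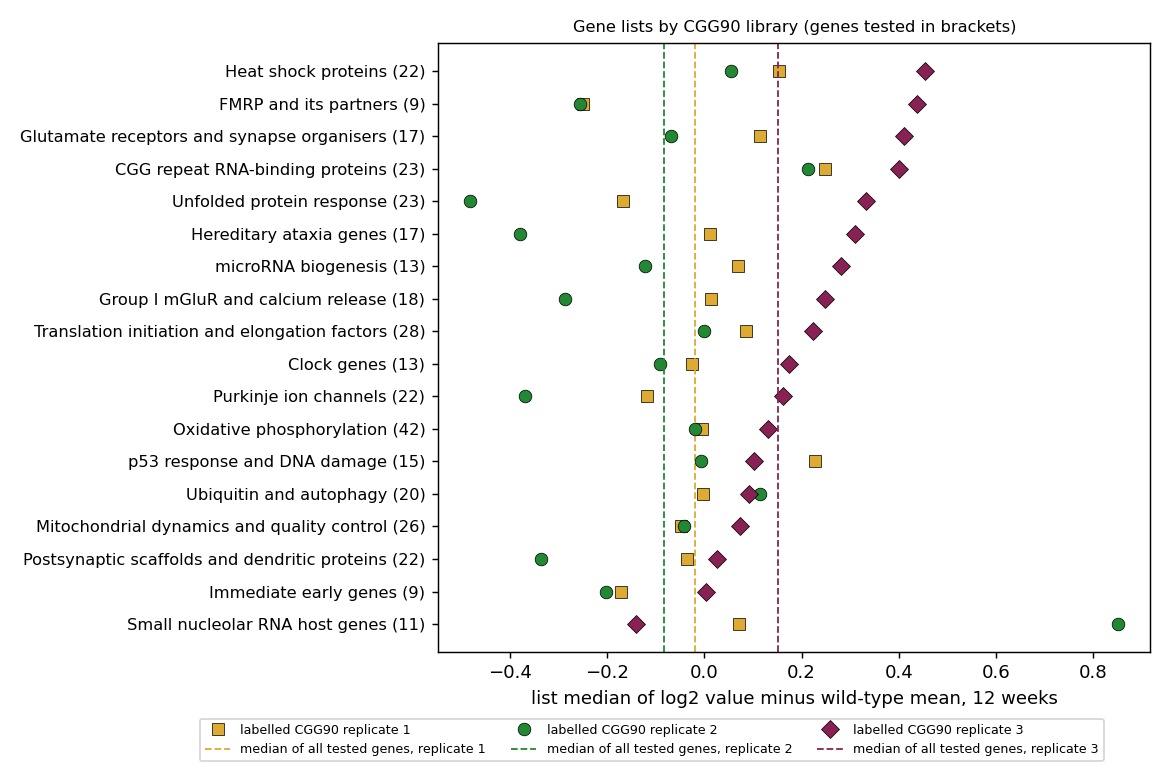
Median over each gene list of a CGG90 library's log2 value minus the wild-type mean at 12 weeks. Symbols are the 3 libraries and dashed lines the medians of all tested genes in each, -0.02, -0.08 and 0.15. Replicate 3 (diamonds) is to the right for most lists, heat shock proteins at 0.45 among them, and replicate 2 is at 0.85 for small nucleolar RNA hosts.

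Mitochondrial dynamics genes were above 0 in 14 of 26 with a median of 0.04. Mfn2, a fusion GTPase, read 9.84, 9.78 and 9.48 in wild type and 8.97, 8.80 and 9.50 in CGG90, with replicate 3 in the wild-type range. Oxidative phosphorylation had the narrowest range of the 18 pathway lists: 42 genes had differences of -0.25 to 0.46 with a median of 0.03. Sdha, a subunit of complex II, read 12.87, 12.90 and 12.74 against 13.15, 13.08 and 13.19, and Cox7a2 14.56, 14.47 and 14.51 against 14.29, 14.20 and 14.46. The groups did not overlap in either, and the differences were 0.31 and -0.20, each with an SE of 0.18.

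Genes of the DNA damage response were above 0 in 9 of 15 with a median of 0.16, immediate early genes in 5 of 9 with 0.05, and clock genes in 7 of 13 with 0.05. Fos read 6.56, 5.74 and 8.63 against 4.53, 5.02 and 6.80, and Jun 7.62, 7.96 and 8.41 against 7.55, 7.46 and 7.32. Per1 read 5.97, 7.18 and 7.08 against 6.12, 4.21 and 7.13, so that replicate 2 alone was low. Mdm2 read 9.17, 9.91 and 9.03 against 9.86, 9.74 and 9.53.

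Markers of other cerebellar cells were mostly a little higher in CGG90. Over 66 tested markers of other cell types, with blood cells and choroid plexus left out, 44 were above 0 and 22 below. Their median was 0.25. Their mean level was 7.75, 7.41 and 7.91 in the wild-type libraries and 8.07, 7.88 and 7.77 in CGG90, so the ranges overlapped. Granule cell markers had a median of 0.39 over 14 genes, astrocyte and Bergmann glia markers 0.21 over 14 and oligodendrocyte markers 0.23 over 13. Their part in the differences above was not tested, and the fit with their mean as a covariate also called 0 genes. Members went both ways: 5 of 14 granule cell, 2 of 14 astrocyte and Bergmann glia and 4 of 13 oligodendrocyte markers were below 0. Granule cell markers differed by -2.03 to 1.76, and their medians were 0.51, 0.67 and 0.13 in CGG90 replicates 1, 2 and 3. Slc17a7, the granule cell vesicular glutamate transporter and one of those above 0, read 5.87, 4.04 and 3.72 against 6.18, 5.97 and 6.74. Gfap, the astrocyte filament, read 8.87, 8.62 and 5.29 against 9.61, 9.71 and 7.56, and Mbp, the myelin protein, 12.22, 12.16 and 13.18 against 12.76, 12.77 and 12.31. Vcan, found in oligodendrocyte precursors, read 8.51 in CGG90 replicate 1, 4.43 in replicate 2 and 2.65 in replicate 3, against 2.50 to 2.52 in wild type. Microglia markers were below 0 in 5 of 7, and Csf1r read 7.51, 2.24 and 8.74 against 8.55, 2.25 and 7.56.

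Purkinje markers were below 0 in 11 of 16, with a median of -0.04. Atp2a3 read 11.03, 10.48 and 9.28 against 8.74, 9.67 and 10.16, and Icmt 13.43, 13.11 and 12.70 against 12.27, 11.90 and 13.22. Pcp4 read 14.97, 15.18 and 15.17 against 15.24, 15.27 and 15.32. The mean of the Purkinje markers was 13.00, 12.93 and 12.51 in wild type and 12.56, 12.49 and 12.94 in CGG90. The CGG90 library with high Fmr1 therefore lay near wild-type replicates 1 and 2, and the other CGG90 libraries near wild-type replicate 3.

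**Figure D5:**
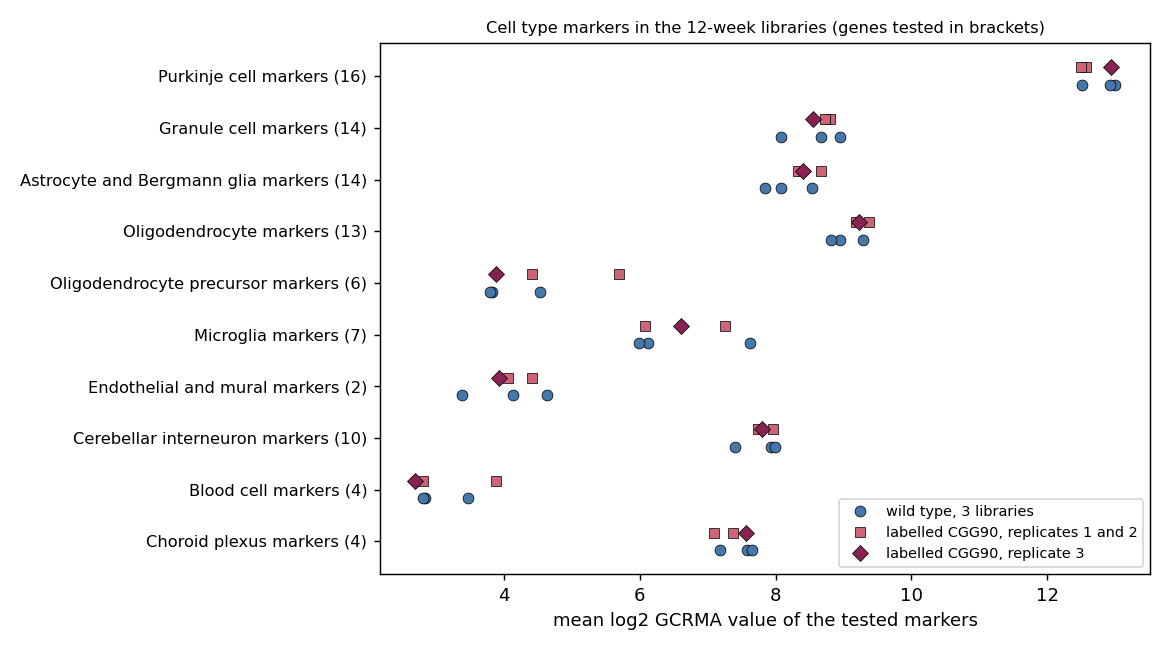
Mean log2 GCRMA value of the tested markers of 10 cell types in each 12-week library. Circles are wild type, squares CGG90 replicates 1 and 2, and diamonds replicate 3. Purkinje markers lie highest, between 12.49 and 13.00, and the genotypes overlap for Purkinje and granule cells.

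Whether the genotype difference at 12 weeks departed from that at the younger ages was tested by the contrast of 12 weeks with the mean of 4 and 8 weeks. With limma and Benjamini-Hochberg adjustment 0 genes (0%) passed, 532 (5.28%) had an unadjusted p below 0.05, and the smallest adjusted p was 0.706. Of the 24 genes of smallest p at 12 weeks, 10 differed in the same direction at 4 weeks and 7 at 8 weeks. Fmr1 differed by -3.97 (SE 1.36) in this contrast, with a limma adjusted p of 0.929. Without replicate 3 it differed by -5.78, a description with no test, since that library was set apart by its Fmr1. Gm19500, singled out after its values were seen, read 5.31 and 6.05 in CGG90 replicates 1 and 2, 2.49 in replicate 3 and 2.58 to 2.65 in wild type.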

How the data were processed

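RNA bound to tagged ribosomes was hybridised to expression arrays, 1 per library. The authors deposited log2 signals of 45101 probe sets made with GCRMA, per the submitters' processing notes and the values; its version and whether all arrays were normalised together are not given in the sources used here. Platform annotation gave 1 symbol to 34958 probe sets, several to 932 and none to 9211. A gene was read by its single-symbol probe set with the highest mean over 18 libraries, and was tested if log2 was at least 4 in at least 3 libraries. Groups were fitted with limma 3.58.1 in R 4.3.3 (12 residual degrees of freedom), with Benjamini-Hochberg adjustment and a threshold of 0.05. The fit was tested on simulated data. Fmr1 and Tardbp had exact permutation tests.

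The genes named were Fmr1, Tardbp, Pcp2, Rpl10a, the 12 of smallest p in each direction, up to 4 of smallest p per list, list members where a list is described, and the 6 with the widest gap in each direction in CGG90 replicate 3. The members, 18 pathway lists and 10 marker lists were chosen with earlier results of these data known. The genes that alternatives called and the count over pairs of CGG90 libraries were chosen after their values were seen.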

Additional observations from a re-analysis of the deposited data

Results flagged for a closer look

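In 8 named genes every CGG90 library lay on one side of every wild-type library at 12 weeks and on the other side at a younger age. Against 8 weeks these were Gpr146, which differed by 1.91 at 12 weeks and -0.52 at 8 weeks, and Snhg5, by 1.45 and -0.71. Lower at 12 weeks and higher at 8 weeks were Ddn, -3.71 and 0.91, Ttc7b, -1.10 and 0.17, Pofut2, -1.65 and 0.78, and Nrxn2, -0.20 and 0.40. Against 4 weeks these were Tarsl2, 1.66 and -0.64, and Nufip1, 1.47 and -0.53. The share of all tested genes with such a reversal was not counted. Most of these genes were named for their small p at 12 weeks, so the count is a description only. The difference between 12 weeks and each single age was not tested. In the contrast of 12 weeks with the mean of 4 and 8 weeks, the limma adjusted p was 0.706 for Gpr146, Ddn, Snhg5 and Tarsl2, 0.929 for Ttc7b, Pofut2 and Nufip1 and 0.966 for Nrxn2.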

How the results depend on the processing

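The count of genes called at 12 weeks, 0, was also 0 under every alternative whose comparison drew on all 6 libraries. It ranged from 0 to 2 when 1 library was left out. With the immunoprecipitation day as a fixed block, the comparison rested on the shared day alone. That day set wild-type replicate 1 against CGG90 replicates 1 and 2, so this setting is the shared-day difference again. Without wild-type replicate 2, limma called Nkd2 (-4.33) and Nmrk1 (-3.66), without wild-type replicate 3 9430015G10Rik (-2.58), and without CGG90 replicate 3 Gm19500 (3.06). The contrast with the younger ages ranged from 0 to 2 in the same way, through CGG90 replicate 3. The Fmr1 difference, 0.45, was -1.07 with the immunoprecipitation day as a fixed block, ranged from -1.37 to 1.62 when 1 library was left out, was 0.76 with array weights, and was 4.08 for replicate 3 alone.

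Counts at an unadjusted p below 0.05, 534 in all, were 359 with the 12-week libraries alone, 742 with no filter and 867 without CGG90 replicate 3. Same-numbered libraries did not deviate together (residual correlations of -0.04, -0.06 and -0.21), and the replicate block gave 0 calls, 526 genes at an unadjusted p below 0.05 and an Fmr1 difference of 0.45.

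Besides Fmr1, and leaving aside the genes named for their gap in CGG90 replicate 3, 12 named genes changed sign in some setting. The 24 genes of smallest p kept theirs, which the lack of overlap fixes wherever libraries are left out. Without libraries 1 and 2 of CGG90, Kcna1 was 0.0706, Khdrbs1 0.254, Atp2b2 0.0496, Per1 0.390, Tef 0.0334, Atp5o 0.0606, Snhg8 -0.280, Jund -0.0529 and Drosha 0.0235. With the day as a fixed block, that is within the shared day, Ubqln1 was -0.139, Tnrc6c -0.182 and Rpl10a 0.271. When 1 library was left out, Tef ranged from -0.527 to 0.0124 and Rpl10a from -0.260 to 0.0156. The cause was not tested. No alternative used probe-level data. How values near the array's floor, such as those of Gpr146, affect a difference was not tested.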
